A study of Homo sapiens with 12 samples.

Results

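The 48 genes described here are the transcription factor ATF4, the regulators around it, the enzymes and carriers that make and import amino acids, and the cytosolic aminoacyl-tRNA synthetases with the tRNA exporter XPOT. They were chosen by gene name, under a rule that uses no measured value, but with earlier results of these data known. Shares of these genes set beside those of all genes are therefore descriptions. All 48 were found among the 29972 gene rows of each line's table, the synthetases under older symbols (AARS for AARS1 and so on). The study sequenced messenger RNA of 2 human lines of triple-negative breast cancer, MDA-MB-436 and BoM-1833, the latter a bone-seeking derivative of another triple-negative line. Every culture was reverse transfected with a lipid reagent and 5 nM siRNA and harvested at 72 h. Control groups (siNT) received a non-targeting pool and knockdown groups (siPHF19) an equal mixture of 2 siRNAs against PHF19 from another supplier. PHF19 encodes a Polycomb-like subunit of the histone methyltransferase PRC2. Each of the 4 groups had 3 libraries, and the labels do not say whether these came from separate cultures, so p-values measure the spread between libraries, which may be technical.

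ATF4 is the main effector of the integrated stress response. Kinases such as EIF2AK4 (GCN2), which senses uncharged tRNA, phosphorylate the translation factor eIF2, and general translation then falls while the ATF4 mRNA is translated more. ATF4 binds as a dimer with C/EBP proteins to composite C/EBP-ATF elements and activates genes for amino acid synthesis, amino acid import and tRNA charging, together with its own feedback regulators. ATF4 protein is set largely by translation, which messenger RNA counts do not measure, and tumour cells use the programme when amino acids are scarce.

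Promoter sequences, shown because the composite element is the feature that ties many of these genes to ATF4, were taken from RefSeq (GRCh38.p14), from 250 bases before to 50 bases after the annotated start. Of the 48 genes, 39 were matched, and no entry was found for NUPR1, PSPH, SHMT2, ALDH1L2, PYCR1, SLC7A11, LARS, YARS and VARS. The composite motif was searched as TGATGNAA, on the other strand TTNCATCA. It occurred in 13 of the 39 promoters (33.3%), against 401 of 15842 protein-coding promoters of the same length (2.53%). Since this element ties many of the chosen genes to ATF4, that comparison is not independent of the choice of genes. Of the 13, 6 belonged to synthetases, 3 to transporters, 2 to feedback genes, 1 to an enzyme gene and 1 to a regulator. The promoters of the 6 motif-bearing genes called in at least 1 line are printed with the match in capitals, in the order ASNS (chr7:97872359-97872658, minus strand), IARS (chr9:92293648-92293947, minus strand), CARS (chr11:3057374-3057673, minus strand), TARS (chr5:33440715-33441014, plus strand), NARS (chr18:57621787-57622086, minus strand) and ATF3 (chr1:212565157-212565456, plus strand).
ASNS: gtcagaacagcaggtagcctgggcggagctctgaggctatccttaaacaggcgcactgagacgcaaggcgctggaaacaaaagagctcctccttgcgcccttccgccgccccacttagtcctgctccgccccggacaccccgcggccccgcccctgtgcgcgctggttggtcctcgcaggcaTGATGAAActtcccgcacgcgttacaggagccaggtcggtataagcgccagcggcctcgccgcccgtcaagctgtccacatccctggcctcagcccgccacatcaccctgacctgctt
IARS: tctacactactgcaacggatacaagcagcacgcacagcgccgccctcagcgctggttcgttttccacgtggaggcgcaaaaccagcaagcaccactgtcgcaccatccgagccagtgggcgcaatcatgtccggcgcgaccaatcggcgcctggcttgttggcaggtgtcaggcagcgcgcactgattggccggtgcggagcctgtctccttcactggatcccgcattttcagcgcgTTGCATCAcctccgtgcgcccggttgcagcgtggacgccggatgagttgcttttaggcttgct
CARS: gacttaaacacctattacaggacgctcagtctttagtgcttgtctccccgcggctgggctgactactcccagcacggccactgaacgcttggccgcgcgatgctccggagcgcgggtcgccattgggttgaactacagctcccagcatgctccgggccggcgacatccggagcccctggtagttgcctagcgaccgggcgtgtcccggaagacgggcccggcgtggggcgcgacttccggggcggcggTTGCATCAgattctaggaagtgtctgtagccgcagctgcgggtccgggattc
TARS: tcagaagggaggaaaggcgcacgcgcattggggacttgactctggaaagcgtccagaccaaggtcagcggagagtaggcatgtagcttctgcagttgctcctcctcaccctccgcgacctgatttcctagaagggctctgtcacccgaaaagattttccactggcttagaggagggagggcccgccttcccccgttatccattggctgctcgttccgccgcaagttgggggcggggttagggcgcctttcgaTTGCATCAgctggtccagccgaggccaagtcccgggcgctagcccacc
NARS: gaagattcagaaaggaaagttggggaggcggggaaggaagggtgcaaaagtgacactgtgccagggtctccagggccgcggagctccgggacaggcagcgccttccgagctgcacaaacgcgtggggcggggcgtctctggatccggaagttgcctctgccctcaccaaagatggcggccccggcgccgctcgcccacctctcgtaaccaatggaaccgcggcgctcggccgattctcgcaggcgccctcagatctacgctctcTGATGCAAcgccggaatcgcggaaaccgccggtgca
ATF3: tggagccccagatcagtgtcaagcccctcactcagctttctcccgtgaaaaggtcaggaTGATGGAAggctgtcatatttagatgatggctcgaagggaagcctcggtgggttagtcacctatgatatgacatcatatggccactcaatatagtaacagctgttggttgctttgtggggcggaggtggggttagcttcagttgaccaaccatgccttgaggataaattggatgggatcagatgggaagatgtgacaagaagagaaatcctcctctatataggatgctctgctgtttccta
Relative to the annotated start, the match began at base -68 in ASNS, -191 in ATF3, -13 in IARS and -2 in CARS. In TARS and NARS it began at bases 3 and 15 after the start. A match is a description of these letters and not evidence of binding. The motif was also present in 7 genes that were called in neither line, namely AARS, MARS, SLC7A1, SLC38A1, SLC3A2, PPP1R15B and CHAC1. Among genes with a promoter to search, 4 of the 11 lower in MDA-MB-436 and 3 of the 9 lower in BoM-1833 carried it, against 8 of 25 and 10 of 28 not called.

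**Figure D1:**
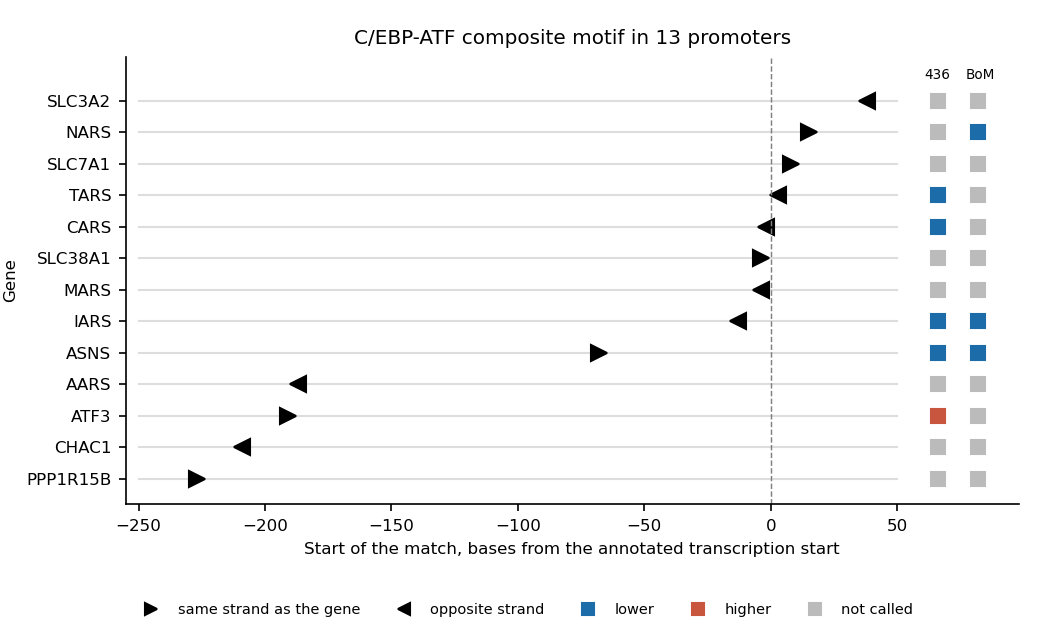
Position of the composite C/EBP-ATF motif in the 13 promoters that hold it. The horizontal axis gives the start of the match in bases from the annotated transcription start, arrowheads give its strand, and the squares at the right give the call in MDA-MB-436 (436) and BoM-1833 (BoM). Matches of ASNS, ATF3, AARS, CHAC1 and PPP1R15B lie upstream, and those of the other 8 genes lie near the start.

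Whole reads recovered from the normalized values amounted to 15.2 to 24.0 M per library in MDA-MB-436 and 13.7 to 21.3 M in BoM-1833. PHF19 itself was at 9.75% of the control mean in MDA-MB-436, and at 10.9% of it in BoM-1833. ESR1 and PGR had at most 4 reads in any library, and ERBB2 had 932 to 1179 normalized counts. Of 8 markers of other cell types, CD3E, MS4A1 and HBB had no reads in the 12 libraries, ALB and CDH5 had at most 2 and PTPRC at most 19, while PECAM1 reached 424 in BoM-1833. The fibroblast marker COL1A1, also among the 8, was called higher in both lines. Of 5 markers of the breast cancer cells themselves, KRT8 and KRT18 were called higher in both lines and EPCAM in neither. CD44 was called lower in MDA-MB-436 (-0.29, adjusted p of 2.66e-05) and VIM lower in BoM-1833 (-0.21, adjusted p of 0.00213), per the authors' deposited table. The part of such shifts in the results for the 48 genes was not tested. The control library siNT replicate 1 held the highest of the 3 control values for 28 of the 46 genes tested in BoM-1833, against 39.4% of all tested genes there. In MDA-MB-436 the same was true of 17 of 48, against 39.0% of all genes.

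In MDA-MB-436, 15 of the 48 genes fell and 3 rose after siPHF19 at an adjusted p under 0.05, against 11.5% and 10.5% of all genes tested. Those that fell were ATF4, TRIB3, DDIT4, ASNS, PHGDH, SHMT2, MTHFD2, PYCR1, CBS, CARS, IARS, LARS, SARS, TARS and YARS, and those that rose were ATF3, ATF5 and SLC7A5. In BoM-1833, 12 of 46 tested genes fell and 1 rose, against 5.72% and 5.21% of all genes. Those that fell there were EIF2AK4, TRIB3, PPP1R15A, DDIT4, ASNS, SHMT2, MTHFD2, CTH, SLC7A11, IARS, LARS and NARS, and SLC7A5 rose. CBS and ALDH1L2 were not tested in BoM-1833. Calls were made from the adjusted p-values in the authors' deposited table for each line. Without siNT replicate 2, siPHF19 replicate 1 or siPHF19 replicate 2, 9 genes were called in MDA-MB-436 in place of 18. In these bulk samples fewer cells of a type and less RNA per cell cannot be told apart.

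The changes were small. Called genes ranged from -0.88 (DDIT4) to 0.56 (ATF3) in log2 fold change in MDA-MB-436 and from -0.54 (PPP1R15A) to 0.25 (SLC7A5) in BoM-1833, per the authors' deposited table, with median sizes of 0.35 and 0.31. Over all members the median log2 fold change was -0.12 in MDA-MB-436, where 32 of 48 values were negative, and -0.13 in BoM-1833, where 36 of 46 were negative. The median over all tested genes was -0.00 in both lines, with 7173 of 14243 negative in MDA-MB-436 and 6571 of 12906 in BoM-1833. Without siNT replicate 1 the BoM-1833 median was -0.07, with 33 of 46 negative, and 17 genes were called in place of 13. All 3 siPHF19 libraries lay below all 3 controls for 23 of 48 genes in MDA-MB-436, against 21.1% of all tested genes, and for 21 of 46 in BoM-1833, against 15.7%. A 2-sided exact permutation test of 3 libraries against 3 cannot give a p below 0.1, so single genes were judged by the model fitted across all genes.

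Of the 46 genes tested in both lines, 7 fell in both, against 3.12% of all genes tested in both, and 1 was called higher in both, against 2.55%. Without the same 3 MDA-MB-436 libraries, each in turn, 3 genes were called in both in place of 8. The 7 were TRIB3, DDIT4, ASNS, SHMT2, MTHFD2, IARS and LARS, and the 1 was SLC7A5. A further 10 genes were called in MDA-MB-436 alone and 5 in BoM-1833 alone, while 25 were called in neither line. Of the genes tested in both, 34 had the same sign in both, 27 of them negative. The share of all genes with the same sign was not counted. Between the lines, log2 fold changes of these 46 genes had a Pearson r of 0.21 and a Spearman rho of 0.24, against 0.323 and 0.407 across all 12290 genes tested in both. These are descriptions across genes of the same libraries, which are not independent replicates.

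**Figure D2:**
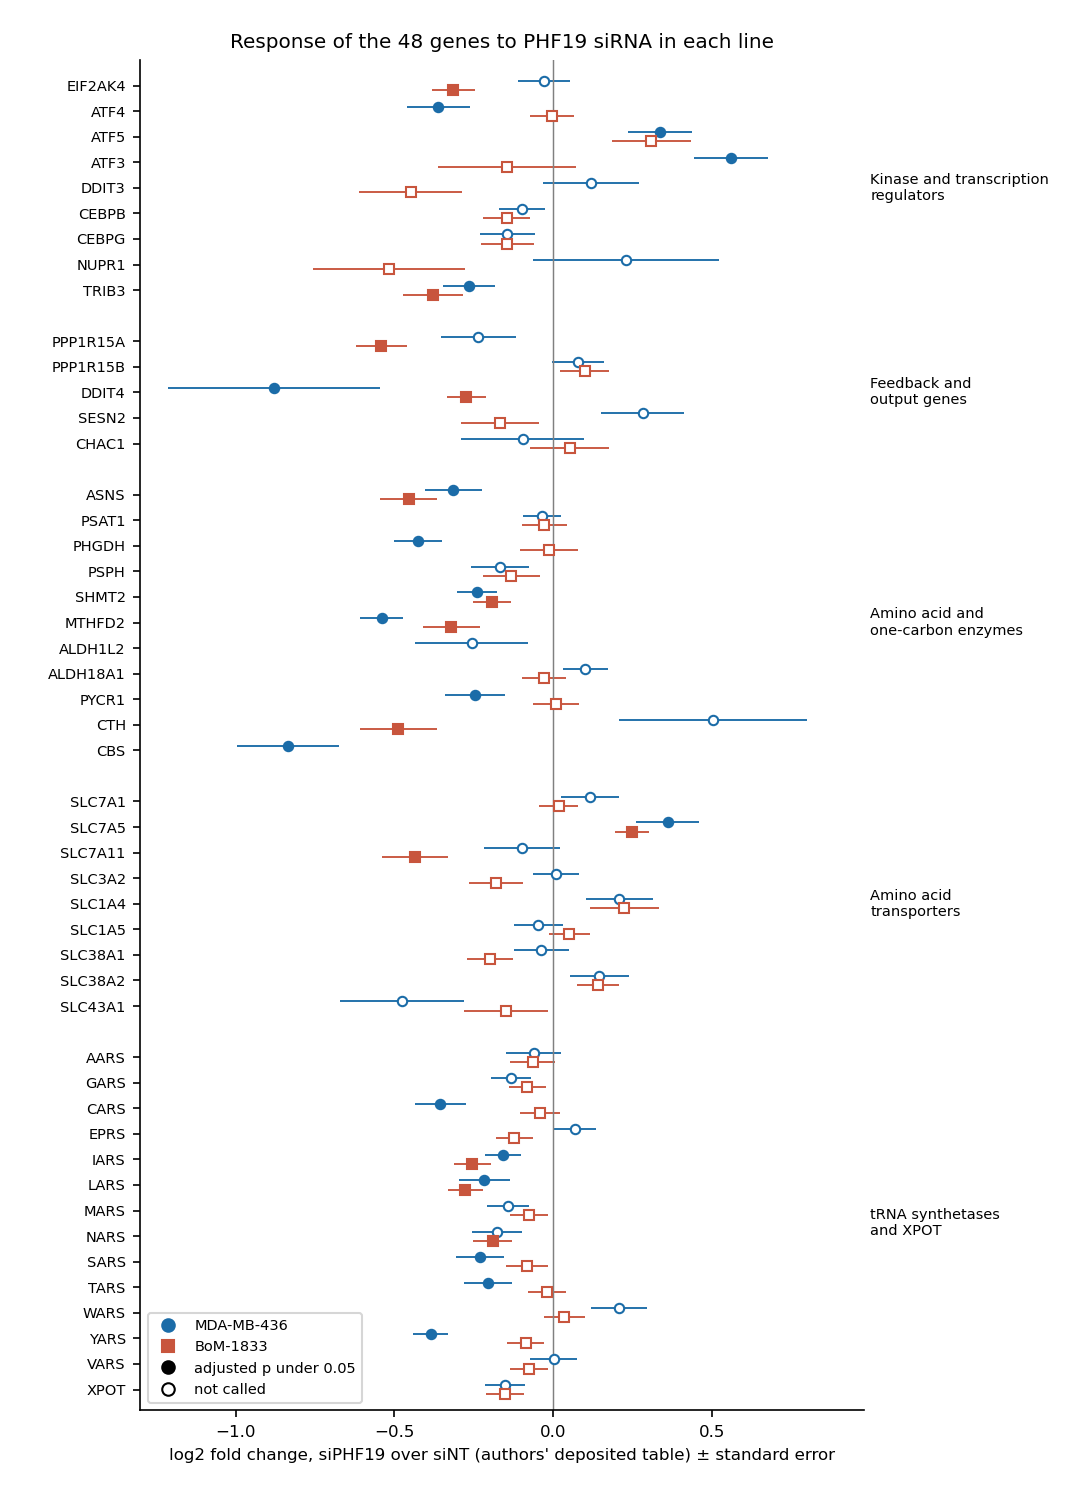
Log2 fold change of siPHF19 over siNT for each of the 48 genes, from the authors' deposited table, with its standard error, grouped by role. Circles are MDA-MB-436 and squares BoM-1833, and filled symbols have an adjusted p under 0.05. Filled symbols lie left of 0 for all called genes except ATF3, ATF5 and SLC7A5.

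Among the 9 regulators, 2 fell and 2 rose in MDA-MB-436 and 2 fell in BoM-1833, with median log2 fold changes of -0.03 and -0.15. Among all tested genes, 11.5% fell and 10.5% rose in MDA-MB-436, and 5.72% fell in BoM-1833. ATF4 (chromosome 22, 39519695 to 39522685, plus strand, GENCODE 29 on GRCh38, as for all gene positions here) gave 4633, 4046 and 3496 normalized counts in the siNT libraries of MDA-MB-436 and 3092, 3099 and 3292 in the siPHF19 libraries. The groups did not overlap, and the control libraries were more spread out than the knockdown libraries. The mean went from 4059 ± 569 to 3161 ± 113 (SD, n = 3). Reads may be shared with 4 annotated ATF4 pseudogenes. ATF4 fell in MDA-MB-436, at -0.36 (standard error 0.10, adjusted p of 0.00257) in the authors' deposited table. In BoM-1833 the control values were 6818, 5894 and 5806 and the siPHF19 values 5913, 6319.6 and 6255. The siPHF19 libraries all lay between the lowest and highest controls, and siNT replicate 1 was the highest of the 6. For BoM-1833 the value is -0.00 (adjusted p of 0.993) in the authors' deposited table.

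EIF2AK4, the kinase that senses uncharged tRNA (chromosome 15, 39934146 to 40035591, plus strand), was called in BoM-1833 and not in MDA-MB-436. In BoM-1833 it gave 2581, 2713 and 2735 normalized counts with siNT and 2244, 2174 and 2039 with siPHF19. Controls and knockdown libraries did not overlap, and EIF2AK4 fell to 80.4% of the control mean. The authors' deposited table gives -0.31 (standard error 0.07, adjusted p of 8.71e-05) there. In MDA-MB-436 the values were 1744, 1728 and 1978 with siNT and 1848, 1716 and 1779.6 with siPHF19. These overlapped, and the authors' deposited table gives -0.03 (adjusted p of 0.857).

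ATF3, a stress-induced transcription factor of the same bZIP class (chromosome 1, 212565334 to 212620777, plus strand), was the regulator that rose most in MDA-MB-436. Its values were 361, 456 and 445 normalized counts with siNT and 595, 629 and 640.0 with siPHF19. All siPHF19 libraries were above all controls, with a rise from 421 ± 51.7 to 622 ± 23.4 (SD, n = 3). The log2 fold change in the authors' deposited table is 0.56 (standard error 0.12, adjusted p of 2.30e-05). In BoM-1833 ATF3 gave 97.6, 96.8 and 91.6 with siNT and 78.5, 96.7 and 84.1 with siPHF19, and the groups overlapped. The authors' deposited table gives -0.15 (adjusted p of 0.792) for BoM-1833.

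DDIT3, which encodes the pro-apoptotic factor CHOP (chromosome 12, 57516588 to 57521737, minus strand), was called in neither line. In MDA-MB-436 it gave 243, 226 and 182 normalized counts with siNT and 229, 248 and 233 with siPHF19. In BoM-1833 it gave 387, 318 and 247 with siNT and 209.6, 231 and 259 with siPHF19. Both pairs of groups overlapped, and the BoM-1833 controls spread over a wider range than the knockdown libraries. The authors' deposited table gives 0.12 (adjusted p of 0.630) for MDA-MB-436 and -0.45 (adjusted p of 0.0525) for BoM-1833. Without siNT replicate 3, DDIT3 passed in BoM-1833 (-0.60, adjusted p 0.00623, DESeq2), and without siNT replicate 1 its estimate was -0.28 (adjusted p 0.297, DESeq2). DDIT3 overlaps MARS, and how strand was used in counting is not given in the sources used here.

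TRIB3, a pseudokinase induced by ATF4 and CHOP that restrains them in turn (chromosome 20, 362835 to 397559, plus strand), fell in both lines. In MDA-MB-436 it gave 1247, 1331 and 1247 normalized counts with siNT and 1022, 1043 and 1124 with siPHF19. In BoM-1833 it gave 1334, 1174 and 1062 with siNT and 864, 921 and 965 with siPHF19. The groups were separate in both lines. The authors' deposited table gives -0.26 (standard error 0.08, adjusted p of 0.00907) in MDA-MB-436 and -0.38 (standard error 0.09, adjusted p of 0.00139) in BoM-1833. In MDA-MB-436 the call was lost without siNT replicate 2, siPHF19 replicate 1 or siPHF19 replicate 2, with DESeq2 adjusted p-values of 0.173, 0.152 and 0.134.

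Of the other regulators, ATF5, a bZIP factor that is itself translated more when eIF2 is phosphorylated, rose in MDA-MB-436 (0.34 (adjusted p of 0.00627)) and had nearly the same estimate in BoM-1833 without passing (0.31 (adjusted p of 0.0907)), both in the authors' deposited table. The ATF5 call in MDA-MB-436 was lost in 3 fits that left out 1 library (siNT replicate 2, siPHF19 replicate 1 or siPHF19 replicate 2, adjusted p up to 0.113 with DESeq2), and in BoM-1833 ATF5 passed without siNT replicate 1 (0.00310) but in none of the other 5 fits (up to 0.499). The ATF4 partners CEBPB and CEBPG and the small stress protein gene NUPR1 were called in neither line. In the authors' deposited table their estimates lie between log2 fold changes of -0.52 and 0.23, both ends being NUPR1, whose mean was under 100 normalized counts in each group.

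Of the 5 feedback and output genes, 1 fell in MDA-MB-436 while 2 fell in BoM-1833, against 11.5% and 5.72% of all tested genes. The 5 had median log2 fold changes of -0.10 and -0.17. PPP1R15A, which encodes the inducible phosphatase subunit GADD34 that reverses eIF2 phosphorylation (chromosome 19, 48872392 to 48876057, plus strand), had the most negative value of the set in BoM-1833. There it gave 3817, 3498 and 3037 normalized counts with siNT and 2268, 2398 and 2457 with siPHF19. The lowest control exceeded the highest knockdown library, and the mean fell from 3451 ± 392 to 2374 ± 96.7 (SD, n = 3). The authors' deposited table gives -0.54 (standard error 0.08, adjusted p of 2.64e-09). In MDA-MB-436 the values were 1999, 1488 and 1459 with siNT and 1383, 1414 and 1403 with siPHF19. All knockdown values were lower, but siNT replicate 1 stood above the other controls, and the authors' deposited table gives -0.24 (adjusted p of 0.142). Without siNT replicate 3 the gene passed in MDA-MB-436 (-0.31, adjusted p 0.0161, DESeq2), and without siNT replicate 1 its estimate was -0.07 (adjusted p 0.567, DESeq2).

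DDIT4 (REDD1), an inhibitor of mTORC1 induced by ATF4 and by hypoxia (chromosome 10, 72273920 to 72276036, plus strand), fell in both lines. In MDA-MB-436 it gave 653, 715 and 609 normalized counts with siNT and 273, 530.1 and 270.4 with siPHF19. Replicate 2 of siPHF19 stood near the controls and well above the other knockdown libraries, though still below all controls. The authors' deposited table gives -0.88 (standard error 0.33, adjusted p of 0.0405). That call was lost without any 1 of the 3 control libraries (DESeq2 adjusted p 0.139, 0.212 and 0.0874), and it missed without independent filtering (0.0562). Without siPHF19 replicate 2 the log2 fold change was -1.28. In BoM-1833 DDIT4 gave 4061, 3877 and 4281 with siNT and 3373, 3415 and 3322 with siPHF19. Both groups had little spread and were separate, and the authors' deposited table gives -0.27 (standard error 0.06, adjusted p of 0.000257). PPP1R15B (the constitutive partner of PPP1R15A), SESN2 (a leucine sensor and mTORC1 inhibitor) and CHAC1 (a glutathione-degrading enzyme) were called in neither line. In the authors' deposited table their estimates lie between log2 fold changes of -0.17 and 0.28.

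**Figure D3:**
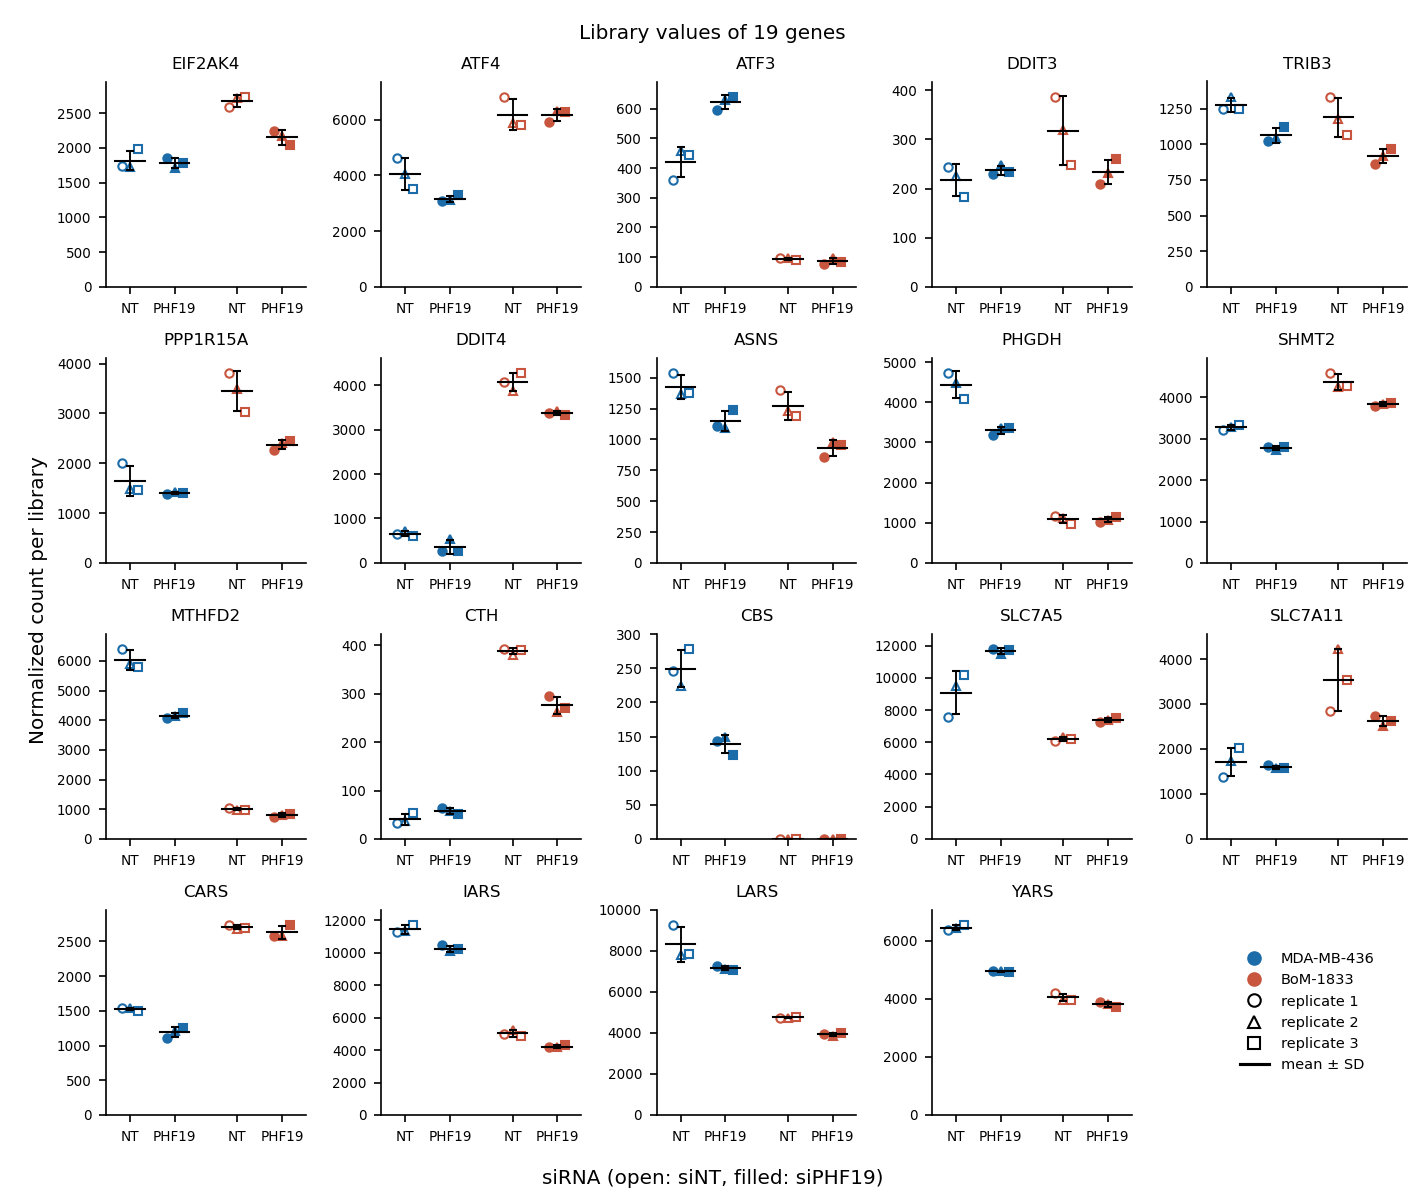
Normalized counts in each library for the 19 genes whose values are given one by one. Open symbols are siNT and filled symbols siPHF19, marker shape gives the replicate number, and horizontal lines with bars give the mean and SD of 3 libraries. The lines were normalized separately, so heights are comparable within a line, where for example PPP1R15A in BoM-1833 and MTHFD2 in MDA-MB-436 show separate groups.

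The enzyme genes held the largest share of lower calls among the roles. Of 11 tested in MDA-MB-436, 6 fell, with a median log2 fold change of -0.24, and of 9 tested in BoM-1833, 4 fell, with a median of -0.13. Lower calls made up 11.5% and 5.72% of all tested genes. ASNS, asparagine synthetase and the standard ATF4 target (chromosome 7, 97852118 to 97872542, minus strand), fell in both lines. In MDA-MB-436 it gave 1540.1, 1366 and 1378 normalized counts with siNT and 1111, 1094 and 1242 with siPHF19. In BoM-1833 it gave 1403, 1227 and 1192 with siNT and 861, 977 and 956 with siPHF19. Knockdown libraries were below all controls in both lines, at 80.5% and 73.1% of the control mean. The authors' deposited table gives -0.31 (standard error 0.09, adjusted p of 0.00412) and -0.45 (standard error 0.09, adjusted p of 1.67e-05). In MDA-MB-436 the call was lost without siPHF19 replicate 1 or 2 (DESeq2 adjusted p 0.0764 and 0.0952). ASNS, like PSAT1, has 4 annotated pseudogenes with which reads may be shared.

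In the serine and one-carbon branch, PHGDH catalyses the first committed step of serine synthesis (chromosome 1, 119648411 to 119744226, plus strand). It gave 4737, 4489.9 and 4079 normalized counts with siNT and 3195, 3348 and 3367 with siPHF19 in MDA-MB-436. The groups did not overlap, and PHGDH fell to 74.5% of the control mean. The authors' deposited table gives -0.43 (standard error 0.08, adjusted p of 5.21e-07). In BoM-1833 the values were 1179.6, 1115 and 979 with siNT and 1015, 1078 and 1156 with siPHF19, which overlapped. The authors' deposited table gives -0.01 (adjusted p of 0.967) there. The next enzymes of the pathway, PSAT1 and PSPH, were called in neither line, with log2 fold changes from -0.17 to -0.03 in the authors' deposited table.

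SHMT2, which splits serine in mitochondria to feed one-carbon units (chromosome 12, 57229327 to 57234935, plus strand), fell in both lines. It gave 3207, 3292 and 3333 normalized counts with siNT and 2791, 2730.0 and 2808 with siPHF19 in MDA-MB-436. In BoM-1833 it gave 4595, 4261 and 4262 with siNT and 3780.4, 3845 and 3867 with siPHF19. The groups were separate in both lines, and the knockdown libraries differed little among themselves. The authors' deposited table gives -0.24 (standard error 0.06, adjusted p of 0.00119) and -0.19 (standard error 0.06, adjusted p of 0.0173). Calls were lost without siNT replicate 2, siPHF19 replicate 1 or siPHF19 replicate 2 in MDA-MB-436 (DESeq2 adjusted p up to 0.0816) and without any 1 siPHF19 library in BoM-1833 (up to 0.136). SHMT2 overlaps NDUFA4L2.

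MTHFD2, the mitochondrial folate enzyme that follows SHMT2 (chromosome 2, 74198562 to 74217565, plus strand), had the smallest adjusted p of the 48 genes in MDA-MB-436. There it gave 6412, 5887 and 5793 normalized counts with siNT and 4066, 4149 and 4228 with siPHF19. The gap between the groups was wider than the spread within either, and the mean fell from 6030.4 ± 333 to 4148 ± 80.7 (SD, n = 3). The authors' deposited table gives -0.54 (standard error 0.07, adjusted p of 6.32e-14). In BoM-1833 MTHFD2 gave 1039.9, 980.3 and 974 with siNT and 728, 822 and 852 with siPHF19. Replicate 1 was the lowest knockdown library, and the groups did not overlap. The authors' deposited table gives -0.32 (standard error 0.09, adjusted p of 0.00521), and without siPHF19 replicate 1 the adjusted p was 0.119 (DESeq2). MTHFD2 overlaps SLC4A5 and has 7 annotated pseudogenes. The mitochondrial folate dehydrogenase ALDH1L2 was not called in MDA-MB-436 and had 0 to 3 reads in the control libraries of BoM-1833.

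The transsulfuration genes CBS and CTH, whose products turn homocysteine into cysteine, were called in different lines. CBS (chromosome 21, 43053191 to 43076943, minus strand) gave 246, 225 and 279 normalized counts with siNT and 144, 149.9 and 124 with siPHF19 in MDA-MB-436. The highest knockdown library was well under the lowest control, and the mean fell from 249.7 ± 27.3 to 139 ± 13.8 (SD, n = 3). The authors' deposited table gives -0.84 (standard error 0.16, adjusted p of 4.55e-06). In BoM-1833 CBS had 0 reads in all 6 libraries. CTH (chromosome 1, 70411218 to 70439851, plus strand) gave 393, 381 and 390.2 with siNT and 296, 262 and 271 with siPHF19 in BoM-1833, where the groups were separate. The authors' deposited table gives -0.49 (standard error 0.12, adjusted p of 0.00128). In MDA-MB-436 CTH was low, at 32.7, 36.4 and 53.8 with siNT and 63.2, 58 and 51.8 with siPHF19. The groups overlapped there, and the authors' deposited table gives 0.51 (adjusted p of 0.228). For proline synthesis, PYCR1 fell in MDA-MB-436 (-0.24 (adjusted p of 0.0469) in the authors' deposited table), a call that was lost in 5 of 6 fits that left out 1 library, all but that without siNT replicate 1 (DESeq2 adjusted p up to 0.33), and with limma (0.0549). ALDH18A1 was called in neither line.

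Among the 9 transporters, SLC7A5 rose in both lines and SLC7A11 fell in BoM-1833, and the medians were close to 0 (0.01 and 0.02 on the log2 scale). Higher calls made up 10.5% and 5.21% of all tested genes in the 2 lines, and lower calls 5.72% in BoM-1833. SLC7A5 (LAT1), the importer of leucine and other large neutral amino acids (chromosome 16, 87830023 to 87869488, minus strand), gave 7590.4, 9474 and 10158 normalized counts with siNT and 11805, 11475 and 11695 with siPHF19 in MDA-MB-436. In BoM-1833 it gave 6099.6, 6335 and 6210.4 with siNT and 7279, 7407 and 7476 with siPHF19. All knockdown libraries were above all controls, and in MDA-MB-436 siNT replicate 1 was the lowest control by a wide gap. The authors' deposited table gives 0.36 (standard error 0.10, adjusted p of 0.00240) and 0.25 (standard error 0.05, adjusted p of 8.27e-05). Its partner chain SLC3A2 was called in neither line (0.01 and -0.18 in the authors' deposited table). SLC7A5 has 2 annotated pseudogenes.

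SLC7A11 (xCT), which imports cystine in exchange for glutamate (chromosome 4, 138164097 to 138242349, minus strand), gave 2840.2, 4229 and 3543 normalized counts with siNT and 2726, 2511 and 2613 with siPHF19 in BoM-1833. The controls spread widely, and siNT replicate 1 was only just above the highest knockdown library. The authors' deposited table gives -0.43 (standard error 0.10, adjusted p of 0.000640). The call was lost without siNT replicate 3 (DESeq2 adjusted p 0.245) or siPHF19 replicate 1 (0.206). In MDA-MB-436 the values were 1379.7, 1738 and 2017 with siNT and 1636, 1585 and 1574 with siPHF19, and all knockdown libraries lay within the control range. The authors' deposited table gives -0.10 (adjusted p of 0.620). Without siNT replicate 1 SLC7A11 passed there as well, as a lower gene (adjusted p 0.0248). The cationic, neutral and glutamine carriers SLC7A1, SLC1A4, SLC1A5, SLC38A1, SLC38A2 and SLC43A1 were called in neither line. SLC43A1 had all knockdown libraries below all controls in MDA-MB-436, at -0.48 (adjusted p of 0.0641) in the authors' deposited table. In that line edgeR and limma each called 1 of the 9 transporters lower. SLC1A4 had all knockdown libraries above all controls in both lines, with log2 fold changes of 0.21 and 0.23 in the authors' deposited table. Such upward separation held for 3011 of 14243 tested genes in MDA-MB-436 and 1972 of 12906 in BoM-1833, and genes with it in both lines were not counted.

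Of the 14 genes for tRNA charging and export, 6 fell in MDA-MB-436 (CARS, IARS, LARS, SARS, TARS and YARS) and 3 in BoM-1833 (IARS, LARS and NARS). Lower calls made up 11.5% and 5.72% of all tested genes. The estimates of the 14 genes were negative for 11 of 14 and 13 of 14, with medians of -0.15 and -0.08. Among all tested genes, 7173 of 14243 and 6571 of 12906 were negative. YARS, the tyrosyl-tRNA synthetase (chromosome 1, 32775237 to 32818153, minus strand), gave 6374, 6451 and 6557 normalized counts with siNT and 4945, 4965 and 4926 with siPHF19 in MDA-MB-436. The libraries of each group were tightly grouped, and YARS fell to 76.5% of the control mean. The authors' deposited table gives -0.39 (standard error 0.06, adjusted p of 2.62e-10). In BoM-1833 YARS gave 4205, 3976 and 3969 with siNT and 3892, 3816 and 3736 with siPHF19. The knockdown libraries were again below all controls, by a smaller margin, and the authors' deposited table gives -0.09 (adjusted p of 0.439). YARS overlaps S100PBP on the opposite strand.

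CARS, the cysteinyl-tRNA synthetase (chromosome 11, 3000922 to 3057613, minus strand), gave 1540.1, 1536 and 1503 normalized counts with siNT and 1109, 1213 and 1257 with siPHF19 in MDA-MB-436. The groups were separate, and the authors' deposited table gives -0.36 (standard error 0.08, adjusted p of 0.000127). In BoM-1833 CARS gave 2741, 2684 and 2688 with siNT and 2579.5, 2572 and 2739 with siPHF19. These groups overlapped through siPHF19 replicate 3, and the authors' deposited table gives -0.04 (adjusted p of 0.803). CARS has 2 annotated pseudogenes.

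IARS and LARS, which charge the tRNAs for isoleucine and leucine, fell in both lines. IARS (chromosome 9, 92210207 to 92293756, minus strand) gave 11276, 11324 and 11736 normalized counts with siNT and 10457, 10099 and 10225 with siPHF19 in MDA-MB-436. In BoM-1833 IARS gave 4991, 5229.7 and 4859 with siNT and 4165, 4174 and 4301 with siPHF19. The groups were separate in each line. The authors' deposited table gives -0.16 (standard error 0.06, adjusted p of 0.0249) and -0.25 (standard error 0.06, adjusted p of 0.000316) for IARS. LARS (chromosome 5, 146113038 to 146182660, minus strand) gave 9278, 7810.2 and 7855 with siNT and 7254, 7125 and 7088 with siPHF19 in MDA-MB-436, where siNT replicate 1 stood above the other controls. In BoM-1833 LARS gave 4716, 4746 and 4799 with siNT and 3933, 3863 and 3979 with siPHF19, again without overlap. The authors' deposited table gives -0.22 (standard error 0.08, adjusted p of 0.0355) and -0.28 (standard error 0.06, adjusted p of 2.38e-05) for LARS.

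The calls of IARS, LARS, SARS and TARS in MDA-MB-436 were close to the threshold. Each was lost in 4 of 6 fits that left out 1 library (without siNT replicate 2 or any siPHF19 library), with DESeq2 adjusted p-values of up to 0.282, 0.176, 0.166 and 0.199. IARS and LARS also missed the threshold with edgeR (0.0562 and 0.0578), as did TARS (0.0595). In BoM-1833 the NARS call (-0.19 (adjusted p of 0.0214) in the authors' deposited table) was lost in 4 such fits, without siNT replicate 2 or any siPHF19 library (up to 0.208), and in MDA-MB-436 NARS passed without siNT replicate 3 (0.0346) but in none of the other 5 fits (up to 0.379). The synthetase genes AARS, GARS, EPRS, MARS, WARS and VARS and the exporter gene XPOT were called in neither line, with values from -0.15 to 0.21 in the authors' deposited table. XPOT and MARS had all knockdown libraries below all controls in both lines, a pattern that CEBPG and PSPH, also called in neither line, shared. In each line taken alone it held for 21.1% (MDA-MB-436) and 15.7% (BoM-1833) of all tested genes. The share of all genes with it in both lines was not counted.

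Related genes outside the 48 were read from lists of the same pathways, beside which 10.5% of all tested genes were higher and 11.5% lower in MDA-MB-436, and 5.21% and 5.72% in BoM-1833. The list of other cytosolic synthetases held 10 genes, among them those for the accessory proteins AIMP1, AIMP2 and EEF1E1. Of the 10, HARS and KARS fell in MDA-MB-436 and HARS in BoM-1833. HARS has -0.62 (adjusted p 1.93e-13) and -0.36 (adjusted p 1.14e-05) in the authors' deposited table. The list medians were -0.12 and -0.08. Of 17 mitochondrial synthetase genes, 0 were called in either line in the authors' deposited table, with medians of 0.02 and 0.04. At an unadjusted p under 0.05, 1 was higher and 2 were lower in MDA-MB-436 and 1 was lower in BoM-1833, and edgeR and limma each called 0 in both lines. A further 15 genes were those of eIF2 kinases, eIF2 and eIF2B subunits and the related factors EIF2A, DNAJC3, GCN1L1 and IMPACT. Of these, EIF2AK3 (the endoplasmic reticulum kinase PERK) and EIF2B1 fell in MDA-MB-436, and EIF2AK3 also fell in BoM-1833. EIF2B1 has -0.44 (adjusted p of 3.30e-06) for MDA-MB-436 and EIF2AK3 has -0.47 (adjusted p of 0.000116) for BoM-1833, per the authors' deposited table.

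Other ATF4 target genes were called in both directions. Of 25 tested in MDA-MB-436, 6 rose (CCPG1, CEBPD, MKNK2, SLC6A9, TXNIP and VLDLR) and 3 fell (MAP1LC3B, PCK2 and STC2), with a median of 0.03, against 10.5% higher and 11.5% lower among all genes. Of 23 tested in BoM-1833, 3 rose (SLC6A9, TXNIP and VEGFA) and MAP1LC3B fell, with a median of -0.01, against 5.21% and 5.72% of all genes. The secreted glycoprotein gene STC2 led in MDA-MB-436 with -0.55 (adjusted p 5.67e-16) and the autophagy gene MAP1LC3B in BoM-1833 with -0.40 (adjusted p of 9.40e-08), per the authors' deposited table. Of 17 other amino acid and one-carbon enzyme genes, ASS1, BCAT1, GLUL and MTHFD2L fell in MDA-MB-436 and GLUD1 and GLUL in BoM-1833, with medians of -0.08 and 0.00. GLUL, glutamine synthetase, has -0.83 (adjusted p 1.19e-20) and -0.32 (adjusted p 0.00222) in the authors' deposited table.

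The difference of the 2 lines' log2 fold changes was tested gene by gene (z test, adjusted over 12290 genes tested in both lines), and 4 of the 46 genes passed, against 4.89% of all genes. For YARS the fall was deeper in MDA-MB-436, with a difference (BoM-1833 minus MDA-MB-436) of 0.30 (SE 0.08, adjusted p 0.00892). The same held for PHGDH, at 0.41 (SE 0.12, adjusted p 0.0155), and CARS, at 0.31 (SE 0.10, adjusted p 0.0427). For CTH the difference was -0.99 (SE 0.32, adjusted p 0.0425), since CTH fell in BoM-1833 and had a positive estimate from few reads in MDA-MB-436. ATF4 (difference 0.36, adjusted p 0.0599), ATF3 (-0.71, 0.0700) and EIF2AK4 (-0.29, 0.102) missed the threshold. At an unadjusted p under 0.05 there were 15 members, against 15.99% of all genes.

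These differences depended on single libraries. Leaving out 1 library at a time gave between 0 and 9 genes. No gene passed without siNT replicate 2, siPHF19 replicate 1 or siPHF19 replicate 3 of MDA-MB-436 or without siPHF19 replicate 2 of BoM-1833, and without siPHF19 replicate 2 of MDA-MB-436 DDIT4 alone passed. Without siNT replicate 3 of MDA-MB-436 the 4 genes were joined by ATF3, ATF4, EIF2AK4, SESN2 and SLC7A11. An interaction term in edgeR and in limma called the 4 genes and ATF3.

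**Figure D4:**
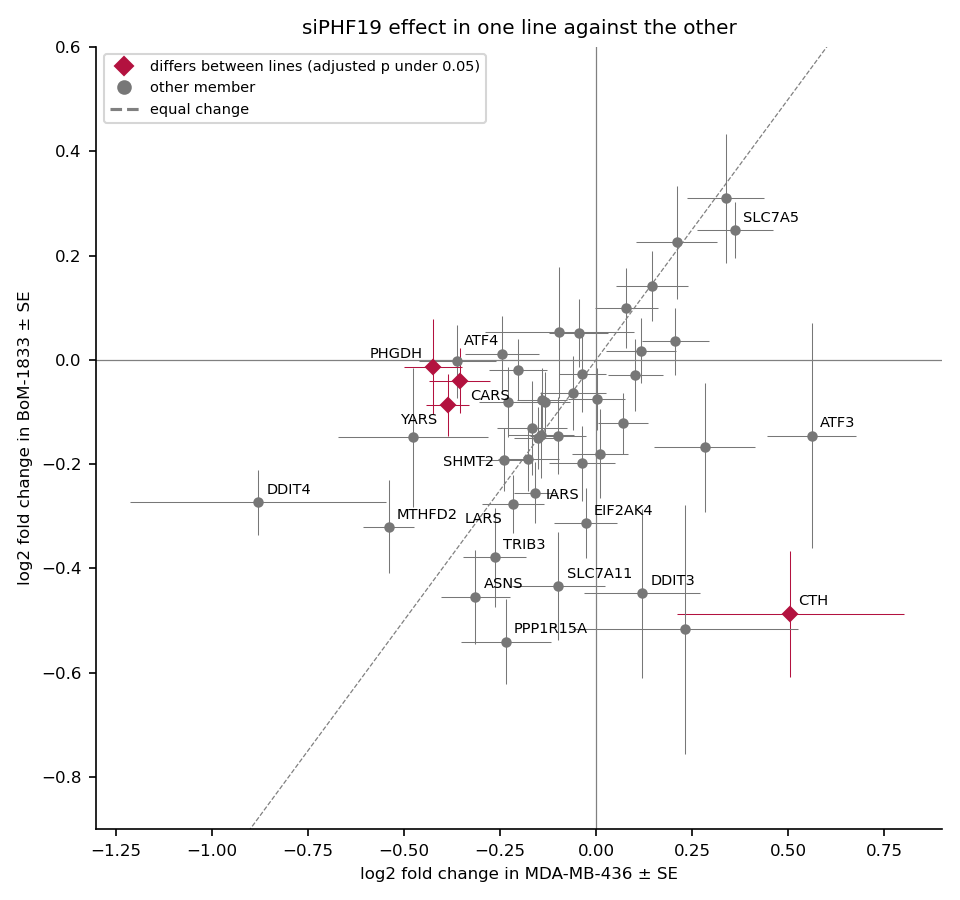
Log2 fold change of siPHF19 over siNT in BoM-1833 (vertical) against MDA-MB-436 (horizontal) for the 46 genes tested in both lines, with standard errors. Red diamonds mark CARS, CTH, PHGDH and YARS, whose changes differ between lines at an adjusted p under 0.05, and the dashed line marks equal change. SLC7A5 lies in the upper right, and TRIB3, DDIT4, ASNS, SHMT2, MTHFD2, IARS and LARS in the lower left.

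Control levels of the 48 genes, in cultures transfected with the non-targeting pool, were set side by side for both lines. They are given as CPM, recovered reads scaled to 1000000 per library, mean ± SD of the 3 siNT libraries, and were not tested because the lines' tables were normalized separately. By these means 32 genes were within 2-fold of each other, 10 were more than 2-fold higher in BoM-1833 and 6 in MDA-MB-436. The share of all genes beyond 2-fold was not counted, so these counts cannot be read as particular to the 48 genes. CTH was at 23.2 ± 0.13 CPM in BoM-1833 and 2.19 ± 0.626 in MDA-MB-436, a ratio of 10.6. DDIT4 was at 243 ± 10.2 and 35.1 ± 2.93 CPM, a ratio of 6.93. The system A glutamine and alanine carrier SLC38A2 was at 1019 ± 98.2 and 342 ± 43.6 CPM, a ratio of 2.98. PPP1R15A, CHAC1, NUPR1, SLC7A11, SLC1A5, SLC43A1 and SARS were also higher in BoM-1833.

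MTHFD2, PHGDH, ATF3, IARS, CBS and ALDH1L2 were higher in MDA-MB-436. MTHFD2 was at 321 ± 12.3 CPM there, against 59.6 ± 1.89 in BoM-1833, a ratio of 5.39 to 1. PHGDH was at 236 ± 14.7 and 65.2 ± 6.18 CPM, a ratio of 3.62 to 1. ATF3 was at 22.4 ± 3.10 and 5.69 ± 0.221 CPM, a ratio of 3.94 to 1, and IARS at 610 ± 21.3 and 300.2 ± 14.3, a ratio of 2.03 to 1. CBS was at 13.3 ± 1.52 CPM in MDA-MB-436 with 225 to 290 reads per control library, and against a floor of 3 reads per library it was at least 78.2-fold higher there than in BoM-1833. ALDH1L2 was at 11.2 ± 2.21 CPM in MDA-MB-436. ATF4 itself was at 216 ± 27.0 CPM there, against 368 ± 31.3 in BoM-1833, within the 2-fold range, and ASNS was at 76.0 ± 3.88 and 76.1 ± 6.38.

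**Figure D5:**
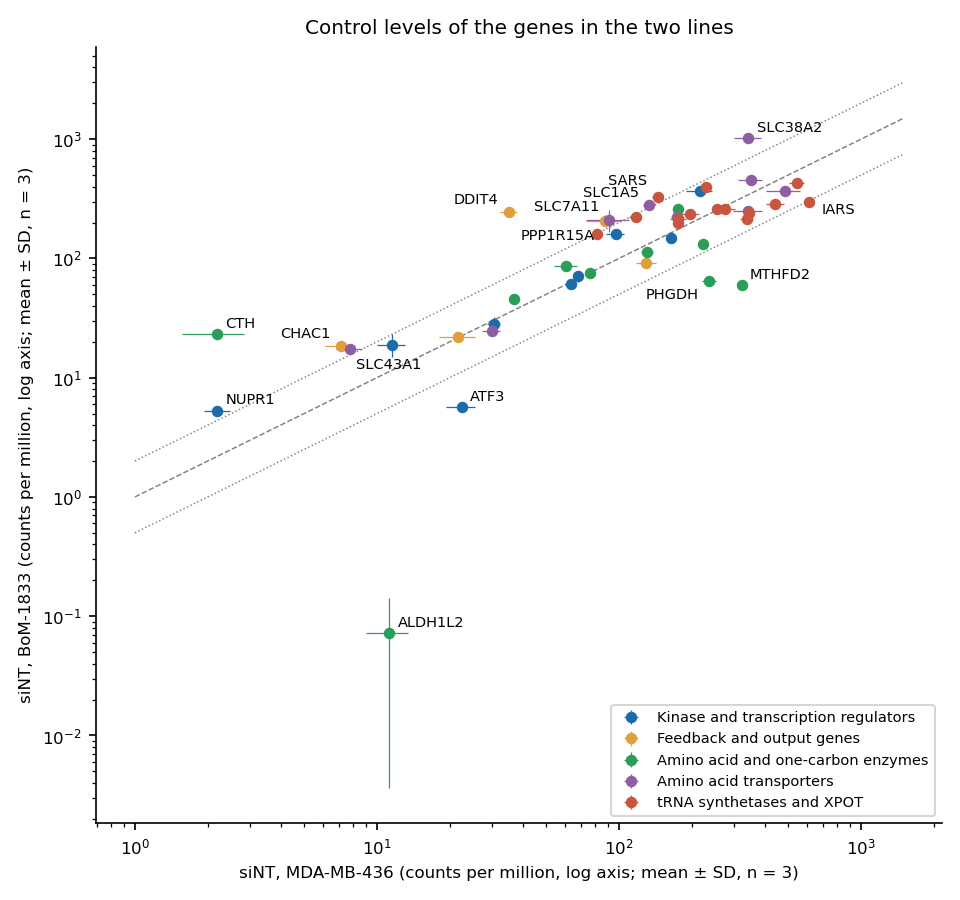
Control level of each gene in BoM-1833 (vertical) against MDA-MB-436 (horizontal), in CPM on log axes, mean and SD of 3 siNT libraries, coloured by role. The dashed line marks equal levels and the dotted lines a 2-fold difference. CTH and DDIT4 lie above the dotted lines and MTHFD2, PHGDH, ATF3 and ALDH1L2 below, and CBS is not drawn because it has 0 reads in BoM-1833.

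The 6 bases AAACTG were counted in annotated 3′ untranslated regions (GENCODE 29), because they occur there more often in genes lowered in both lines than in other genes of these tables. They were present in 66.9% of 357 genes lower in both lines and in 40.5% of 7717 genes called in neither. Because the bases were picked for this difference, these shares are not a separate result. The regions of the genes called in neither line were also shorter, with a median of 983 bases, and the part of length was not tested. Of the 46 members tested in both lines, 12 carried the 6 bases (26.1%), against 42.0% of all genes tested in both. The median region of these members was 609 bases long, against 1056 for all genes and 1502 for the genes lower in both. The 6 bases were present in 2 of the 7 members lower in both lines (28.6%), in 5 of the 20 lower in at least 1 line (25.0%) and in 7 of the 28 others (25.0%). The lowered genes that carried them were DDIT4, MTHFD2, SLC7A11, NARS and YARS, with 3 copies in MTHFD2 and 5 in SLC7A11, and ATF4, ASNS, TRIB3, PPP1R15A and PHGDH had 0 copies. The sequences of the siRNAs are not given in the sources used here.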

How the data were processed

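Stranded mRNA libraries from 12 samples, 3 per siRNA and line, were grouped by their titles. STAR, RSEM 1.3.1, DESeq2 1.46.0 and the build hg38 are named in the submitters' processing notes. Which annotation was counted, and with what strand setting, is not given in the sources used here. Per the file headers, the authors deposited 1 DESeq2 table per line. Its library values are a signal, which the authors made by dividing each library's read counts by a size factor. Fold changes of siPHF19 over siNT and standard errors were deposited as log2 values, and their ratio, the Wald statistic, was deposited as a score. The authors also deposited p-values, raw and adjusted by Benjamini-Hochberg over the genes tested (MDA-MB-436, 14243; BoM-1833, 12906).

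The main test was the authors' deposited DESeq2 Wald test at an adjusted p under 0.05, read for the 48 genes. In addition, whole reads were recovered from each column's step (100% of values whole within 0.05 of a step), and DESeq2 1.42.0, edgeR 4.0.16 (quasi-likelihood) and limma 3.58.1 (pseudocount 1 or 8, mean of at least 10) were run in R 4.3.3 as alternatives. DESeq2 run on these reads gave the deposited number of calls, 3143 and 1411. Scripts were tested on simulated data with planted changes of 1 log2 unit. That is larger than any change called among the 48 genes, so detection of smaller changes was not tested. Replicates of a group differed beyond sampling noise (chi-square per degree of freedom 2.29 to 24.1 over 12 pairs), so each library counted once. Alternatives were other tools, filters and thresholds, a replicate block and leaving out each library.

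The members and lists were chosen with earlier results of these data known. Library values are given for members called in both lines, members whose change differed between lines, the 6 called members of each line with the largest absolute Wald statistic, and ATF4, DDIT3, EIF2AK4, ASNS, PPP1R15A and SLC7A11. Promoters came from RefSeq (GRCh38.p14), gene positions and 3′ untranslated regions from GENCODE 29. No genome sequence was used here.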

Additional observations from a re-analysis of the deposited data

Results flagged for a closer look

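The response to siPHF19 differed between the 2 lines for 4 of the 46 genes tested in both lines, against 4.89% of all genes, by a z test of the difference itself, given as the log2 fold change in BoM-1833 minus that in MDA-MB-436. The difference was 0.30 for YARS, the tyrosyl-tRNA synthetase gene, 0.41 for PHGDH, the first enzyme of serine synthesis, and 0.31 for CARS, the cysteinyl-tRNA synthetase gene. In each of these the 3 siPHF19 libraries of MDA-MB-436 were below all controls, and the estimate in BoM-1833 was nearer to 0. For CTH, which makes cysteine from cystathionine, the difference was -0.99, with 30 to 47 reads per control library in MDA-MB-436 against 409 to 495 in BoM-1833. Each of the 4 differences missed the threshold when certain single libraries were left out.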

How the results depend on the processing

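Other tools gave similar counts of called members: with DESeq2, edgeR and limma and no block, MDA-MB-436 had 15 to 18 and BoM-1833 13 to 16. Leaving out 1 library gave 9 to 22 members in MDA-MB-436 (9 without siNT replicate 2, siPHF19 replicate 1 or siPHF19 replicate 2), 10 to 17 in BoM-1833, 3 to 9 in both lines in the same direction and 0 to 9 that differed between lines. A minimum absolute log2 fold change of 0.5 left 4 members (MDA-MB-436), 1 member (BoM-1833) and 0 in both. With an adjusted p under 0.01, 4 were called in both lines. The cause of these shifts was not tested, except that a stricter threshold can keep fewer genes.

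Same-numbered libraries did not deviate together (correlations of -0.10 to -0.05 for MDA-MB-436, -0.23 to -0.14 for BoM-1833), so the replicate numbers were not taken as pairs. With the number as a replicate block, DESeq2 called 9 members (MDA-MB-436), 8 members (BoM-1833) and 2 in both lines, and 1 member (DDIT4) differed between lines.

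For the 19 genes described one by one there were 518 alternative values, including DESeq2 run again, which repeats the deposited fit. Calls were lost in 25 values from fits without 1 library and in 19 from other fits. They were gained in 3 and 1 such values. Of the 518, 10 changed sign, all in genes not called in the line concerned. ATF4 in BoM-1833 was 0.000585 with the block and 0.000902 and 0.000897 with limma, and ranged from -0.0463 to 0.0754 without 1 library. PHGDH in BoM-1833 ranged from -0.0860 to 0.0482, EIF2AK4 in MDA-MB-436 from -0.0625 to 0.0360 and SLC7A11 in MDA-MB-436 from -0.228 to 0.0327. Changes of the size of the standard errors were not resolved with 3 libraries per group.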

Other observations

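Genes of neighbouring pathways were read from further lists. Beside these lists, 10.5% of all tested genes were higher and 11.5% lower in MDA-MB-436, and 5.21% and 5.72% in BoM-1833. Of 14 genes of the other endoplasmic reticulum stress arms, DNAJB9, a chaperone partner of the lumen, rose and HYOU1 and MANF fell in MDA-MB-436. In BoM-1833 DNAJB11 rose and HERPUD1, HSPA5 (the chaperone BiP) and HYOU1 fell. HYOU1 has -0.36 (adjusted p 1.13e-08) in MDA-MB-436 and HERPUD1 -0.28 (adjusted p of 0.00275) in BoM-1833, both in the authors' deposited table, with list medians of -0.07 in both lines.

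Of 21 genes for amino acid sensing by mTORC1, RRAGD, a Rag GTPase gene, rose in MDA-MB-436 with 0.27 (adjusted p 0.00378) in the authors' deposited table, and the list median was 0.08. In that line 4 were higher and 0 lower at an unadjusted p under 0.05, and edgeR and limma each called 3 higher and 0 lower. In BoM-1833, 0 of the 21 were called in the authors' deposited table and the median was -0.02. At an unadjusted p under 0.05, 2 were higher and 1 lower there, and edgeR and limma each called 1 higher and 1 lower.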
